A study of Bos taurus with 16 samples.

Results

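The chemokines CXCL8, CXCL10, CCL5 and CCL20 were followed through the response of bovine monocyte-derived macrophages (MDMs) to lipopolysaccharide (LPS), the cell wall component of Gram-negative bacteria. They were chosen by Ensembl identifier, and 3 of the 4 identifiers were found among the 27607 genes counted in every library. These were ENSBTAG00000019716, given as CXCL8, ENSBTAG00000001725, given as CXCL10, and ENSBTAG00000021326, given as CCL20. ENSBTAG00000007191, given as CCL5, was not analysed here. The files name genes by identifier alone, and the gene table at hand matched 0 of the 27607 identifiers, so the pairing of each symbol with its identifier could not be checked and values are given by identifier.

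Chemokines are small secreted proteins that draw leukocytes along a gradient, each through its own receptors. CXCL8 (interleukin 8) recruits and activates neutrophils through CXCR1 and CXCR2. CXCL10 is induced by interferons and draws activated T and NK cells through CXCR3. CCL20 attracts cells that carry CCR6, such as immature dendritic cells and certain T cells. CCL5 draws T cells and monocytes. Macrophages that sense LPS through TLR4 are a known source of these proteins.

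Peripheral blood was taken from Taurine (Holstein) and Indicine (Gir) cattle, which the study's methods describe as healthy animals aged 6 to 12 months, and adherent mononuclear cells were differentiated for 11 days with fetal bovine serum. The MDMs of each animal were then cultured for 48 h with 100 ng/ml LPS or in medium alone, so that each animal gave 1 unstimulated and 1 LPS library. The breeds were represented by 4 animals each, numbered 1, 20, 3 and 50 in Taurine and 2, 5, 6 and 7 in Indicine, which gave 16 poly-A RNA libraries in 4 groups of 4. Each breed is thus known from 4 animals at 1 dose and 1 time, and the cells' identity could not be checked against marker genes, since no markers could be matched to identifiers.

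The libraries held 7362247 to 10296054 counts in genes, with a median of 8302642, and values are given as CPM (counts per 1000000 gene counts of the library), of which 1 was worth 7.36 to 10.3 counts. On the first principal component of all genes, which held 38.8% of the variance, the unstimulated library of Taurine animal 3 lay at 25.5 and those of the other 3 Taurine animals between −80.1 and −64.5. The unstimulated libraries of Indicine animals 5 and 6, at 53.9 and 48.5, lay beside the Indicine LPS libraries, at 51.4 to 62.6, whereas those of animals 2 and 7 lay at −46.1 and −18.6. Results whose call or sign changes without these animals are also given without them. In libraries made from bulk cells, fewer expressing cells and less RNA per cell cannot be told apart.

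The neutrophil chemokine ENSBTAG00000019716 (CXCL8) was abundant in every library and higher after LPS in 8 of 8 animals. Of the 12968 genes that reached 1 CPM in 4 or more of the 16 libraries, 323 (2.49%) were higher with LPS in each of the 8 animals. In the Indicine animals it went from 249 to 2315 CPM in animal 2, from 716 to 2626 in animal 5, from 807 to 993 in animal 6, and from 902 to 2205 in animal 7. Animal 2 had the lowest unstimulated value of the 4 and animal 6 the lowest LPS value, and the unstimulated and LPS values of the breed did not overlap. That separation, with LPS higher, was shared by 193 of 11913 genes tested in Indicine (1.62%). In the Taurine animals the gene went from 1733 to 4552 CPM in animal 1, from 460 to 840 in animal 20, from 747 to 1738 in animal 3, and from 568 to 2539 in animal 50. Animal 1 was the highest in both conditions and animal 20 the lowest in both, so the ranges overlapped although every animal moved the same way.

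**Figure D1:**
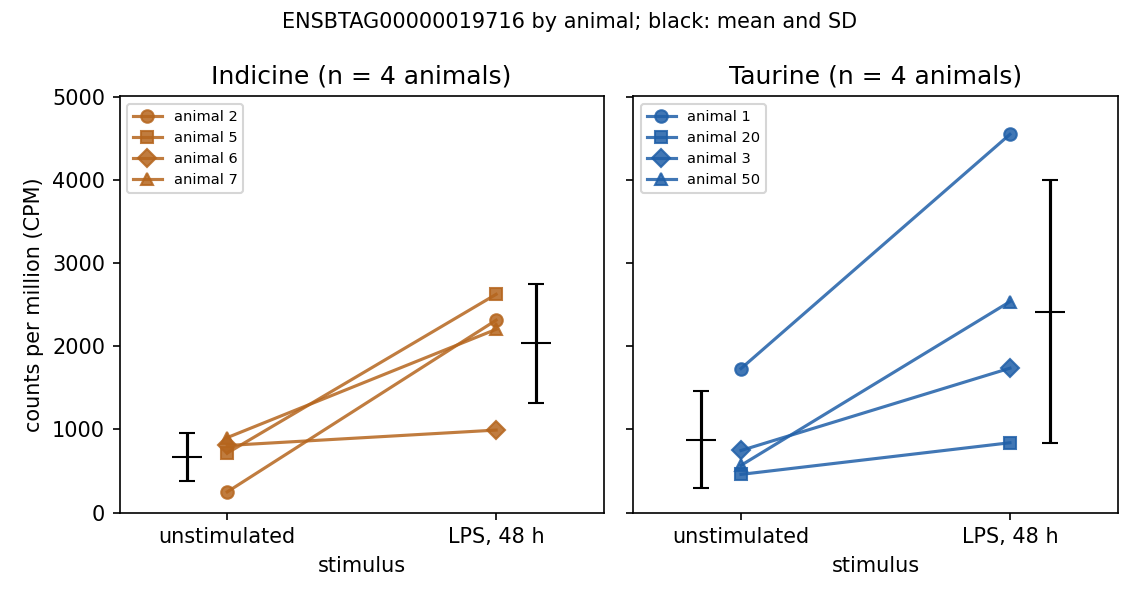
CPM of ENSBTAG00000019716 (CXCL8) in unstimulated and LPS libraries of Indicine (left) and Taurine (right) animals, with 1 line for each animal and the group mean with its SD in black (n = 4). All 8 lines rise, from the shallow line of Indicine animal 6 (807 to 993 CPM) to that of Taurine animal 1, which reaches 4552 CPM.

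The size of the change in ENSBTAG00000019716 differed widely between animals. It was 9.30-fold in Indicine animal 2, whose libraries deviated together least of all pairs (correlation of their deviations from the group means 0.03), 3.67-fold in animal 5, 2.44-fold in animal 7 and 1.23-fold in animal 6. In Taurine it ranged less, from 1.83-fold in animal 20 through 2.33-fold in animal 3 and 2.63-fold in animal 1 to 4.47-fold in animal 50. On the log2(CPM + 0.5) scale the within-animal difference was 1.67 ± 1.22 in Indicine and 1.41 ± 0.54 in Taurine (SD, n = 4 each), and 1.54 ± 0.88 over all animals (SD, n = 8). The largest and the smallest response thus both came from Indicine animals, on either side of all 4 Taurine animals. Even the count behind the lowest of the 16 values was 2444, so counting error was small beside the spread between animals.

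Against all genes of the same animal, ENSBTAG00000019716 (CXCL8) stood near the upper end of the differences in each pair of libraries. It lay at the 99.7th percentile of 12968 genes in Indicine animal 2, the 98.9th in animal 5, the 91.3th in animal 6 and the 99th in animal 7. In Taurine it lay at the 99.3th percentile in animal 1, the 97.8th in animal 20, the 95.7th in animal 3 and the 99.2th in animal 50. The median gene moved by −0.31 to −0.065 on the same scale. The unstimulated libraries of Indicine animal 6 and Taurine animal 3, which held the lowest places, lay above 0 on the first principal component, as did that of Indicine animal 5, at the 98.9th percentile. Those of Indicine animals 2 and 7, at the 99.7th and 99th percentile, lay below 0 with those of Taurine animals 1, 20 and 50. The part of that position in the size of the response was not tested.

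**Figure D2:**
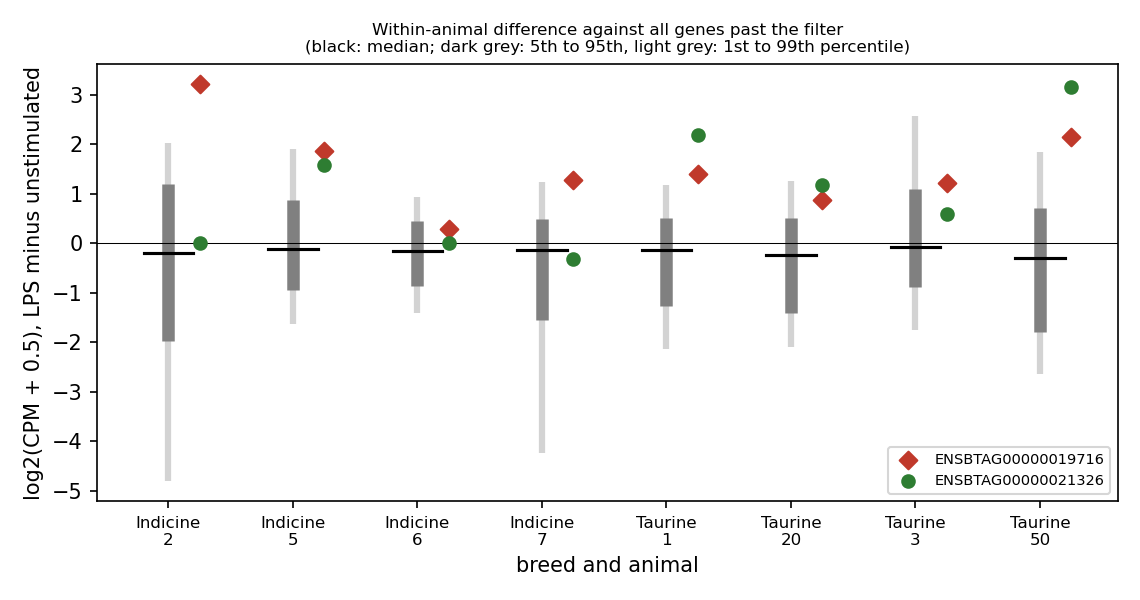
Difference in log2(CPM + 0.5) between the LPS and the unstimulated library of each animal for ENSBTAG00000019716 (CXCL8, red diamonds) and ENSBTAG00000021326 (CCL20, green circles), over the spread of all 12968 genes (median in black, 5th to 95th percentile in dark grey, 1st to 99th in light grey). CXCL8 lies above the median gene in all 8 animals, and CCL20 lies above 0 in the 4 Taurine animals and in Indicine animal 5.

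Fitted over all 8 animals with the animal as a block, ENSBTAG00000019716 (CXCL8) was higher after LPS by 1.68 on the log2 scale (SE 0.28, 95% interval 1.05 to 2.30, adjusted p = 0.0048, edgeR's quasi-likelihood test with Benjamini-Hochberg adjustment). It ranked 109th of 12968 genes by the size of the rise. A gene was called when its false discovery rate (FDR) was under 0.05 and its log2 fold change at least 1 in size, and 709 genes (5.47%) were called in this comparison, of which 236 (1.82%) were higher. The call held when each animal was left out in turn, with log2 fold changes of 1.45 to 1.89. Without Taurine animal 3 the value was 1.74, without Indicine animal 5 it was 1.63 and without Indicine animal 6 it was 1.89.

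Within each breed the estimated rise was above 1 log2 unit, and whether it was called depended on the fit. In Indicine the log2 fold change of ENSBTAG00000019716 was 1.72 (SE 0.43, 95% interval 0.76 to 2.68, edgeR adjusted p = 0.191), and it was not called. Of the 11913 genes tested in Indicine, edgeR's quasi-likelihood test called none (0%), or 33 without animal 6 and 1 without animal 5, although 1393 (11.7%) had an unadjusted p under 0.05 and the DESeq2 Wald test called 352 of 18641 (1.89%). With the animal as a block the value was 1.80 in Indicine (SE 0.46, edgeR adjusted p = 0.156), a fit that called 26 genes (0.218%), and 0 to 191 with 1 animal left out. DESeq2 called this gene in Indicine at 1.73 (adjusted p = 0.00195), and the likelihood ratio test of edgeR called it at 1.72 (adjusted p = 0.00802) among 263 genes (2.21%).

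In Taurine the log2 fold change of ENSBTAG00000019716 (CXCL8) was 1.65 (SE 0.58, 95% interval 0.33 to 2.96, edgeR adjusted p = 0.564), which was not called. Here too the quasi-likelihood test of edgeR left all 12400 genes uncalled (0%), with 841 (6.78%) at an unadjusted p under 0.05 and 162 of 19204 (0.844%) called by DESeq2. This gene was not called in Taurine by DESeq2 (1.65, adjusted p = 0.125) or by the likelihood ratio test of edgeR (1.65, adjusted p = 0.217). With the animal as a block the Taurine value was 1.60 with a standard error of 0.24 (95% interval 1.01 to 2.19, edgeR adjusted p = 0.0189), and it was called, as were 472 genes in all (3.81%), a count that was 8 without animal 20, 108 without animal 1, 164 without animal 50 and 1239 without animal 3. The blocked Taurine call was lost without animal 1 (log2 fold change 1.57, edgeR adjusted p = 0.103) and without animal 20 (1.75, edgeR adjusted p = 0.0902), and it held without animal 3 (1.71) and without animal 50 (1.32).

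The breeds did not differ detectably in ENSBTAG00000019716 before or after LPS. The unstimulated mean was 669 ± 290 CPM in Indicine and 877 ± 583 CPM in Taurine, and after LPS it was 2035 ± 717 CPM in Indicine and 2417 ± 1583 CPM in Taurine (SD, n = 4 each). The ranges overlapped in both conditions, whereas 399 of 12565 genes (3.18%) in unstimulated and 957 of 11986 (7.98%) in LPS libraries were higher in every Taurine animal than in any Indicine animal. Taurine minus Indicine was 0.29 on the log2 scale in unstimulated MDMs (SE 0.51, 95% interval −0.89 to 1.46, edgeR adjusted p = 0.850), where 40 of 12565 genes (0.318%) were called, and 12 to 49 with 1 animal left out. After LPS it was 0.19 (SE 0.46, 95% interval −0.84 to 1.21, edgeR adjusted p = 0.886), where 880 of 11986 genes (7.34%) were called. The sign of both differences rested on single animals. Without Taurine animal 1 the difference was −0.22 in unstimulated and −0.24 in LPS treated MDMs. It was −0.00092 in unstimulated MDMs without Indicine animal 2, and −0.036 in LPS treated MDMs without Indicine animal 6.

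The direct test of whether the breeds responded differently gave a difference of the LPS responses, Taurine minus Indicine, of −0.11 for ENSBTAG00000019716 (SE 0.73, 95% interval −1.68 to 1.45, edgeR adjusted p = 1.00). Without Indicine animal 5 it was 0.0045 and without Indicine animal 2 it was 0.20. With the animal as a block it was −0.24 (SE 0.57, 95% interval −1.52 to 1.03, edgeR adjusted p = 0.915). No gene was called in this comparison by edgeR's quasi-likelihood test (0 of 12968, 0%), 249 (1.92%) had an unadjusted p under 0.05, and DESeq2 called 2 of 20045 genes (0.00998%). These intervals leave room for responses that differ by more than 1 log2 unit either way.

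**Figure D3:**
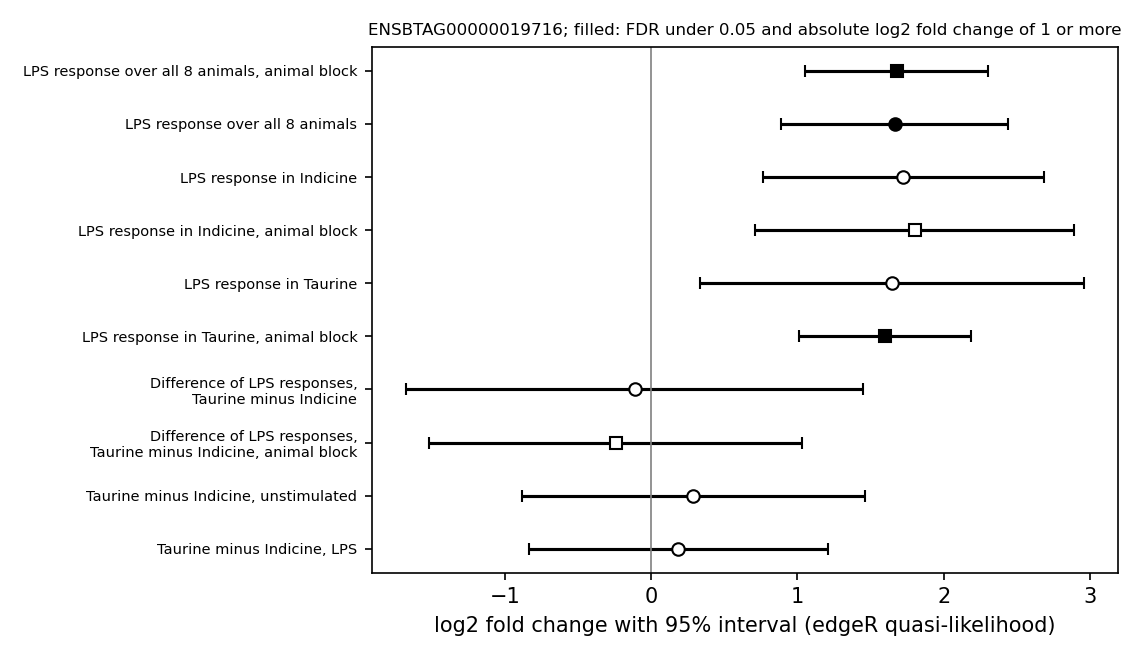
Log2 fold changes of ENSBTAG00000019716 (CXCL8) with 95% intervals from edgeR's quasi-likelihood fits, circles without and squares with the animal as a block, filled where the gene was called. The 6 estimates of the LPS response lie between 1.60 and 1.80 and the 4 differences between breeds have intervals that span 0.

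The genes whose levels followed ENSBTAG00000019716 most closely over the 16 libraries were ENSBTAG00000033983 and ENSBTAG00000007833, each with a Pearson correlation of 0.96 among 12967 genes compared (log2 CPM). Within the 8 unstimulated libraries the correlations were 0.96 and 0.87, and within the 8 LPS libraries 0.98 and 0.95. The libraries share animals and the LPS treatment, so these values describe the pattern and carry no test.

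ENSBTAG00000021326 (CCL20), whose product is the ligand of CCR6, was a rare transcript that was counted mainly in the LPS libraries of Taurine animals. In Taurine animal 50 it went from 3 to 74 counts (0.360 to 7.19 CPM), in animal 1 from 3 to 26 (0.342 to 3.34 CPM), in animal 20 from 3 to 12 (0.342 to 1.41 CPM) and in animal 3 from 0 to 2 (0 to 0.258 CPM). All 4 Taurine animals were higher after LPS, but the LPS value of animal 3 lay within the range of the unstimulated libraries. In Indicine animals 2 and 6 no count was found in either library, animal 5 went from 0 to 9 counts (1.01 CPM after LPS), and animal 7 went from 1 count (0.121 CPM) to 0. The limit set by a count of 0 was taken as 3 counts, or 0.291 to 0.407 CPM depending on the library, which lies below the upper end of the exact 95% Poisson intervals in the plot, and it covers counting error only. Over the 8 animals the gene was higher after LPS in 5, lower in 1 and at 0 in both libraries in 2.

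The ratio of LPS to unstimulated CPM of ENSBTAG00000021326 (CCL20) could be given in 3 Taurine animals. It was 20.0 in animal 50 (95% counting interval 6.57 to 99), 9.76 in animal 1 (2.99 to 50.4) and 4.11 in animal 20 (1.11 to 22.7). The order of the 3 ratios was thus not resolved by the counts. Animal 50 alone held 64.9% of the 114 counts of the Taurine LPS group. The 2 animals with the highest values, 50 and 1, also had the highest ENSBTAG00000019716 (CXCL8) values of the Taurine LPS libraries.

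**Figure D4:**
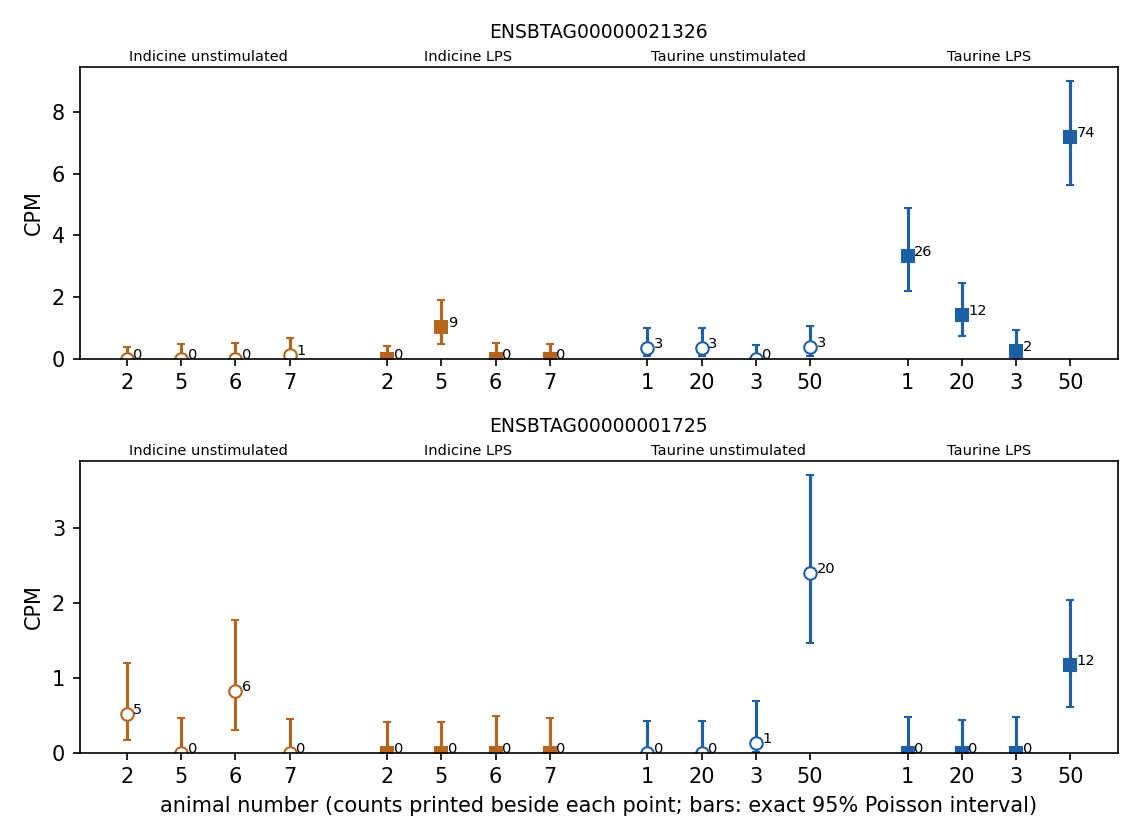
CPM of ENSBTAG00000021326 (CCL20, top) and ENSBTAG00000001725 (CXCL10, bottom) in each of the 16 libraries, with the count printed beside each point and exact 95% Poisson intervals as bars (open circles unstimulated, filled squares LPS). CCL20 is highest in 3 Taurine LPS libraries (12 to 74 counts), and CXCL10 exceeds 6 counts only in the 2 libraries of Taurine animal 50.

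The group means of ENSBTAG00000021326 (CCL20) were 0.0302 ± 0.0604 CPM in unstimulated Indicine, 0.252 ± 0.503 in LPS treated Indicine, 0.261 ± 0.174 in unstimulated Taurine and 3.05 ± 3.04 in LPS treated Taurine MDMs (SD, n = 4 each). It fell under the limit of 1 CPM in 4 libraries in the fits of each breed's response and of the unstimulated libraries. It passed over all 16 libraries only through 4 LPS libraries, so a difference between the conditions was built into its passing. In that fit, blocked by animal, the LPS response was 3.34 on the log2 scale (SE 0.61, 95% interval 1.94 to 4.73, edgeR adjusted p = 0.0104), which was called. Without a filter on low values the fit gave 3.33 (edgeR adjusted p = 0.00803), where 808 of 20045 genes (4.03%) were called. The call was lost without Taurine animal 50 (2.76, edgeR adjusted p = 0.0608) and without the animal as a block (3.46, edgeR adjusted p = 0.0621), a fit that called 211 genes (1.63%).

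Among the LPS libraries alone, ENSBTAG00000021326 passed the filter in 4 of 8, of which 3 were Taurine and 1 was Indicine animal 5. Taurine minus Indicine was 3.45 (SE 1.22, 95% interval 0.73 to 6.18, edgeR adjusted p = 0.128), which was not called. The value was 2.50 without Taurine animal 50, and over all alternatives the adjusted p was 0.0502 to 0.310. Without Indicine animal 5, the only Indicine LPS library with counts, the value was 7.72. The gene then passed the filter only through Taurine libraries, with every Indicine LPS library at 0. A difference was thus built in, and 7.72 depends on the prior count. The ranges overlapped, since Taurine animal 3 (0.258 CPM) lay below Indicine animal 5 (1.01 CPM). The difference of the LPS responses was 0.88 with a standard error of 5.64 (95% interval −11.1 to 12.9, edgeR adjusted p = 1.00). It was −1.08 without Indicine animal 7, 5.49 without Indicine animal 5 and 0.11 without Taurine animal 50. Leaving out either Indicine animal left an Indicine group with no counts, so those values depend on the prior count. The libraries could thus not show whether the response of this gene differed between breeds.

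Fitted within Taurine with no filter on low values, the LPS response of ENSBTAG00000021326 (CCL20) was 3.66 (SE 1.00, edgeR adjusted p = 0.458) without and 3.54 (SE 0.50, edgeR adjusted p = 0.00567) when blocked by animal. In the second fit, which was added after seeing the data, 651 of 19204 genes (3.39%) were called. DESeq2, which applies its own filter, called the gene at 3.77 (adjusted p = 0.0234), and with the animal as a block at 3.51 (adjusted p = 0.00038), where 591 genes (3.08%) were called. Without animal 3, where the filter asked for 1 CPM in 3 libraries, the gene entered the Taurine fit only through its 3 LPS libraries, so a difference was again built in. The value was then 3.71 without and 3.62 with the animal as a block, among 12556 genes of which the blocked fit called 9.87%. The unfiltered fit within Indicine gave 2.76 (SE 1.63, edgeR adjusted p = 0.579), resting on 10 counts in all, and DESeq2 with the animal as a block gave 0.42 (SE 3.46).

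ENSBTAG00000001725 (CXCL10), the interferon-induced ligand of CXCR3, was at 0 counts in 7 of the 8 LPS libraries and was higher after LPS in 0 of 8 animals. In Indicine the unstimulated libraries held 5 counts in animal 2 (0.509 CPM), 6 in animal 6 (0.815 CPM) and 0 in animals 5 and 7, while all 4 LPS libraries held 0, for which the limit of 3 counts over the group is 0.0894 CPM and the upper end of the exact 95% Poisson interval 0.110 CPM. In Taurine animal 50 it went from 20 to 12 counts (2.40 to 1.17 CPM), in animal 3 from 1 to 0, and in animals 1 and 20 both libraries held 0. Animal 50 therefore held 95.2% of the unstimulated and all of the LPS counts of the breed. Its ratio of LPS to unstimulated CPM was 0.486, with a 95% counting interval of 0.216 to 1.04 that includes 1.

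The group means of ENSBTAG00000001725 were 0.331 ± 0.402 CPM in unstimulated Indicine, 0 in LPS treated Indicine, 0.631 ± 1.18 in unstimulated Taurine and 0.291 ± 0.583 in LPS treated Taurine MDMs (SD, n = 4 each). It passed the filter on low values in none of the fits. Without the filter, the log2 fold change over all 8 animals was −1.75 (SE 0.83, 95% interval −3.65 to 0.15, edgeR adjusted p = 0.268), and it was not called there or in any other fit that gave it a value. In Indicine alone the group held 11 counts before and 0 after LPS. Pooled over libraries, the ratio of LPS to unstimulated CPM had an upper 95% counting limit of 0.398. That limit covers counting error only and leaves out the spread between animals. Within animals that limit was 1.19 in animal 2, which includes no change, and 0.831 in animal 6. The unfiltered Indicine fit gave −4.47 (95% interval −8.74 to −0.20, edgeR adjusted p = 0.427), or −4.38 (−8.79 to 0.032) with the animal as a block, values that depend on the prior count since the LPS group is at 0.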

How the data were processed

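MDMs of 4 Taurine and 4 Indicine animals gave 16 libraries, grouped by the labels. The authors aligned paired-end poly-A reads with STAR 2.6.0c and deposited the gene counts of HTSeq 0.10.0, taken over uniquely mapped reads and not normalized. The study's methods name the genome ARS-UCD1.2 and the labels UMD3.1, so no coordinates are given. No strand setting for counting is given in the sources used here. The 5 counters of unassigned alignments, 18.4 to 23.2% of each file's total, were left out, with the counter that repeats another one added once.

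The members and lists were chosen with earlier results of these data known. The lists of other chemokines, receptors, LPS signalling genes and cell type markers could not be matched to identifiers and were not analysed, and no sequences were available for the members. Besides the members, the genes named were the most correlated ones to each, of which those of CCL20 are left out because of its low counts.

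CPM was computed over gene counts. Genes that reached 1 CPM in 4 or more libraries of a fit were tested over the whole table with edgeR 4.0.16 in R 4.3.3 (TMM factors, quasi-likelihood test, Benjamini-Hochberg adjustment), and called at FDR under 0.05 and a log2 fold change of at least 1 in size. The study's methods mention paired comparisons but name no block in the model, so each breed's response was fitted on its 8 libraries without one, with the block as an alternative, and the response over all animals with the animal as a block. Titles give each animal's number for both of its libraries. Deviations from the group means of the libraries of 1 animal correlated at 0.03 to 0.84, lowest in Indicine animal 2, which correlated at up to 0.30 with another animal. Pseudocounts were 0.5 CPM for within-animal differences. Alternatives were DESeq2 1.42.0, other scalings, no filter, the block and leaving out each animal, with the filter at 1 CPM in as many libraries as the smaller group then held. The fits were tested on simulated data. Replicates of a group differed by more than sampling noise in all 24 pairs. Values and plots used Python 3.11.15.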

Additional observations from a re-analysis of the deposited data

Results flagged for a closer look

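Among 18 groups of 4 values examined for the 3 chemokines, 6 held a value that stood far from the other 3 by the gap between them relative to the range of the group. For ENSBTAG00000021326 (CCL20) these were Indicine animal 5 after LPS at 1.01 CPM (9 counts, the others at 0), Indicine animal 7 unstimulated at 0.121 CPM (1 count, the others at 0) and Taurine animal 3 unstimulated at 0 CPM (the others at 3 counts each). The within-animal difference of ENSBTAG00000021326 in Indicine animal 5 was also apart, at 1.59 on the log2(CPM + 0.5) scale. Its unstimulated library held 0 counts, so the size depends on the pseudocount, with 3.47 at 0.1 CPM and 0.588 at 2 CPM. For ENSBTAG00000001725 (CXCL10), Taurine animal 50 stood apart in both conditions, at 2.40 CPM unstimulated (20 counts) and 1.17 CPM after LPS (12 counts). Where the other 3 values are 0, any count stands apart by this measure, and chance flags about 1 in 20 groups of values that are not tied. No group of ENSBTAG00000019716 (CXCL8) held such a value.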

How the results depend on the processing

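Of 154 alternative fits of ENSBTAG00000019716 (CXCL8), ENSBTAG00000021326 (CCL20) and ENSBTAG00000001725 (CXCL10), 133 kept the direction and the side of the threshold. With the replicate block, which pairs the libraries of an animal, the Taurine response of CXCL8 passed the threshold at 1.60, 1.59 with DESeq2 and 1.57 without a filter (added after seeing the data), and leaving out each animal of that blocked fit (also added) gave 1.32 to 1.75. Its Indicine response passed at 1.73 with DESeq2, 1.72 with the likelihood ratio test and 1.81 with the replicate block and DESeq2. Leaving out 1 animal turned the sign of CXCL8 differences that were not called, with ranges of −0.42 to 0.20 for the difference of responses, −0.22 to 0.48 between unstimulated and −0.24 to 0.46 between LPS treated breeds. The Taurine response of CCL20 passed at 3.77 with DESeq2, 3.51 with the replicate block and DESeq2 and 3.54 with the replicate block and no filter (added after seeing the data). Without animal 3 it was 3.62 to 3.71, passing with the block at 3.62 and not without it. Its response over all animals was 3.46 with no replicate block and 2.76 to 3.67 with 1 animal left out, and its difference of responses −1.08 to 5.49, so that its sign turned. Without Indicine animal 7 (−1.08) or animal 5 (5.49) an Indicine group held no CCL20 counts, so those values depend on the prior count. The CCL20 call over all animals was lost without the replicate block, and the block changed no other call of these genes. Genes called rose from 0 to 26 in Indicine and from 0 to 472 in Taurine with the replicate block. They fell from 709 to 211 over all animals without it. Without a filter the blocked fits called 282 in Indicine and 651 in Taurine, and with DESeq2 310 and 591. With DESeq2, which also replaces the filter by its own, the unblocked fits called 352 in Indicine and 162 in Taurine. DESeq2 called 333 against 40 between unstimulated and 1412 against 880 between LPS treated breeds, and 2 against 0 for the difference of responses. Between LPS treated breeds edgeR without a filter called 1155. The likelihood ratio test called 263 in Indicine, 127 in Taurine and 232 between unstimulated breeds, and 1 model over all 16 libraries called 2, 36 and 150. Leaving out 1 animal gave 442 to 933 called genes over all animals, 12 to 49 between unstimulated breeds (12 without Indicine animal 7, 17 without Indicine animal 6, 19 without Taurine animal 1), 0 to 33 in Indicine, 8 to 1239 in the blocked Taurine fit and 0 to 191 in the blocked Indicine fit. Scaling to library totals moved the median of all genes in the LPS response over all animals from −0.037 to −0.19, and CXCL8 was then 1.53. Counts of 0 to 74 limit CCL20 and CXCL10.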
